A study of Homo sapiens with 18 samples.

Results

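HOX genes encode homeodomain transcription factors that set positional identity along the embryonic body axis, and they lie in the genome as 4 clusters named HOXA, HOXB, HOXC and HOXD. Within a cluster the genes are numbered by paralog group from the 3′ end to the 5′ end, and in the embryo the 3′ genes are used earlier and further forward than the 5′ genes. Retinoic acid signalling and Trithorax proteins favour their transcription, Polycomb proteins hold it silent, and PBX and MEIS proteins bind DNA together with the HOX proteins. Identifiers made of HOXA, HOXB, HOXC or HOXD and a number selected 25 of the 16616 genes with a row in at least 1 of the 5 deposited tables. Of these, 24 are described, and 1 HOXA gene is not reported here and is left out of every count, median and correlation over HOX genes.

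The tables compare cells of GemMIA-R3 and of its parent. GemMIA-R3 is a resistant line raised from MIA PaCa-2, an established line of human pancreatic ductal adenocarcinoma, by stepwise growth in the nucleoside analogue gemcitabine; it is 1 selected line, and gemcitabine was withdrawn before the experiments. The 18 sequenced libraries form 6 groups of 3: GemMIA-R3 given 400 nM CM03, a small molecule that binds G-quadruplexes, GemMIA-R3 control cells given the PBS vehicle, and parental control cells without CM03, each at 6 h and at 24 h. The CM03-treated parental libraries belong to an earlier study, so that in every contrast between the CM03 responses of GemMIA-R3 and parental cells the line cannot be told apart from the study. The labels do not state that the replicates were separate cultures, and the FDR values then reflect only the variation among these libraries, some or all of which may be technical.

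For each gene the tables hold its log2 fold change (log2FC) with a false discovery rate (FDR), and no level in any library, so that values per sample, absolute levels and depth are unknown and the order of HOX genes by abundance could not be seen. A gene was called Down at a log2FC under -0.5 and Up at a log2FC over 0.5, both with an FDR under 0.1. Each error given after ± is a standard error recovered from the deposited FDR. Its median over all genes was 0.162 between the untreated lines, 0.140 at 6 h and 0.177 at 24 h for the CM03 response of GemMIA-R3, and 0.0870 and 0.0877 for that of parental cells, so that a change of a given size was called less easily in GemMIA-R3 cells. Of 10 ductal and epithelial marker genes, 6 or 7 had a value in each table. With no levels in the tables, the labelled cell type could not be checked further.

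HOX genes of 3 clusters were measured. Of the other 38 protein-coding HOX genes in GENCODE release 44 (hg38), 6 of 10 HOXA genes, 9 of 10 HOXB genes, 9 of 9 HOXC genes and 0 of 9 HOXD genes had a row in the tables used here. HOXA5, HOXC10, HOXC11, HOXC12 and HOXC13 were listed at a log2FC of 0 with an FDR of 1 in both parental tables and had no other row, and HOXC9 was so listed at 24 h. The remaining 19 genes, 5 of HOXA, 9 of HOXB and 5 of HOXC, had a value other than 0 in at least 1 table, and 16 had one in all 5. Among these 19, 13 were called in at least 1 table and 6 in none, namely HOXA7, HOXB3, HOXB4, HOXB6, HOXC4 and HOXC9. The share of all genes called in at least 1 table was not counted, so that 13 of 19 has no such share to be read against.

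The HOXA cluster from HOXA2 to HOXA13 spans 99.7 kb of the minus strand (chr7:27100354-27200091), HOXB 200.2 kb of the minus strand (chr17:48528526-48728750), HOXC 117.2 kb of the plus strand (chr12:53938831-54056030) and HOXD 98.2 kb of the plus strand (chr2:176092721-176190907). Several annotated spans overlap. HOXA3 holds HOXA4, HOXA5 and HOXA6, HOXB3 holds HOXB4, HOXB5 and most of HOXB6, HOXB7 holds HOXB8 and HOXB9, and HOXC6 holds HOXC8 and HOXC9 and reaches into HOXC4, which holds HOXC5. Antisense RNAs such as HOXA-AS2, HOXA11-AS, HOXB-AS1 and HOXB-AS3 overlap HOX genes on the other strand. The sources used here do not say whether reads were counted by strand, so that reads of these overlapping genes cannot be told apart. HOXA2 and HOXB13 overlap none of them.

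A G-quadruplex is a stacked structure that guanine-rich DNA can fold into, and CM03 binds it. The canonical motif was searched as 4 runs of at least 3 G separated by loops of 1 to 7 bases, and as the same pattern of C on the other strand. RefSeq promoter sequences (GRCh38.p14) were at hand for 7 of the 24 genes, HOXA2, HOXA3, HOXA7, HOXA11, HOXA13, HOXC4 and HOXC5, in 12 windows. In the 250 bases before a transcription start, 3 of these 12 windows held a motif, against 23.5% of all 35116 windows of the same length. The promoters below are those of a gene that CM03 down-regulated in both lines and that held no motif there (HOXA2), of HOXA3 and HOXA13, which held motifs, and of the window that RefSeq gives for both HOXC4 and HOXC5. That window lies just before the GENCODE span of HOXC4, which starts at chr12:54016931. The GENCODE span of HOXC5 starts further on, at chr12:54033050. Motifs are in capitals, on either strand, and touching or overlapping motifs form 1 run of capitals. They mark a match of letters only.
HOXA2, chr7:27102684-27102933, minus strand: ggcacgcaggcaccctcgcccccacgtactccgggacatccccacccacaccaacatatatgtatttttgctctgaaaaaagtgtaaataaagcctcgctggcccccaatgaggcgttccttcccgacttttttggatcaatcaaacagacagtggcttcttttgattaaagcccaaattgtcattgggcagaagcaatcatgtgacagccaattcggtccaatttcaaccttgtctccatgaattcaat
HOXA3, 1 of 7 windows, chr7:27113843-27114092, minus strand: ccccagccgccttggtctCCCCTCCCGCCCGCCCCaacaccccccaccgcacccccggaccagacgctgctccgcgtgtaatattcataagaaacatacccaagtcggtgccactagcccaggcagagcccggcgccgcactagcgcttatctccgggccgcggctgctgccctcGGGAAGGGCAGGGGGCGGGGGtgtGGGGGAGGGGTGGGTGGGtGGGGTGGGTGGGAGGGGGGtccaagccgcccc
HOXA13, chr7:27200092-27200341, minus strand: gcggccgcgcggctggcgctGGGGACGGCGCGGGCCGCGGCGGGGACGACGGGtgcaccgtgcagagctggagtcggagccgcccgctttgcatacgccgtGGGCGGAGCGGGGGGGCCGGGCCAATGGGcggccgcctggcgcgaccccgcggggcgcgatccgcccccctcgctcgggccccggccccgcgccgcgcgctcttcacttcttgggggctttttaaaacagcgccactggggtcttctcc
HOXC4 and HOXC5, chr12:54016638-54016887, plus strand: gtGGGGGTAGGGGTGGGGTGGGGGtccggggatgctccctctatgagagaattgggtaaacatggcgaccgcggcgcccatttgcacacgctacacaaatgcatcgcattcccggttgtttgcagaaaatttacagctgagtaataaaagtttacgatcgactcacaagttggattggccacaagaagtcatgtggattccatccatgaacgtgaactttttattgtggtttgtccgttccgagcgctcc
The HOXA2 window held 0 motifs, the HOXA3 window 4, the HOXA13 window 2 and the shared window of HOXC4 and HOXC5 held 1. The other 6 HOXA3 windows held none.

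In the absence of CM03, the HOX genes of GemMIA-R3 cells differed from those of parental cells in opposite directions at the ends of the HOXA cluster. HOXA2 and HOXA3, genes near the 3′ end that pattern the hindbrain and the pharyngeal arches, were up-regulated, with log2FC values of 1.95 ± 0.60 (FDR = 0.00391) and 2.10 ± 0.27 (FDR = 2.89e-13). These are levels 3.87 and 4.28 times those of parental cells. HOXA13, the gene at the 5′ end, which acts in the development of the distal limb and the hindgut, was down-regulated by the largest amount of any HOX gene in this comparison, at -3.15 ± 0.75 (FDR = 0.000146), or 0.113 times the parental level. HOXA11, its neighbour, which acts in limb and kidney development, had a log2FC of 0.21 ± 0.36 (FDR = 0.701).

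**Figure D1:**
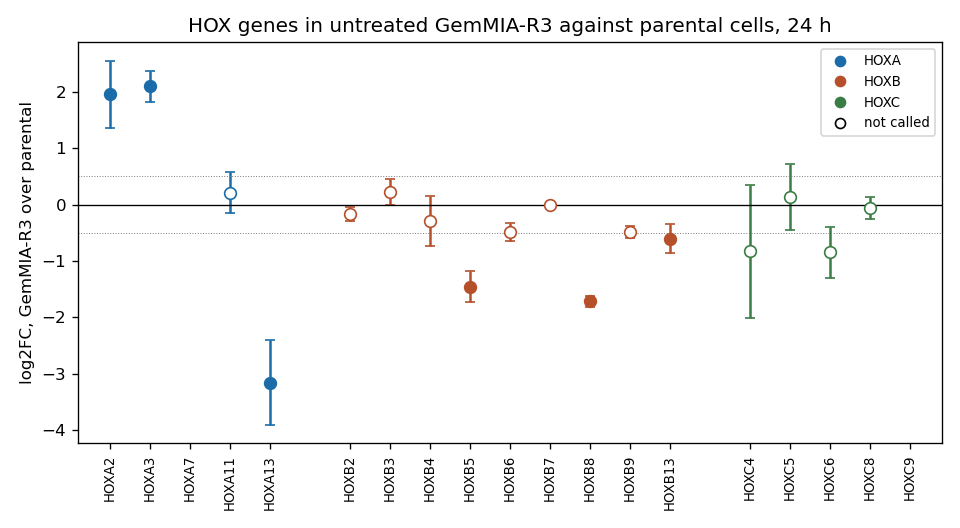
Deposited log2FC of untreated GemMIA-R3 over parental cells at 24 h for each HOX gene with a value, by cluster and paralog group. Bars are 1 recovered standard error (none is drawn where the change was under 0.01 in size), filled points are called genes, and dotted lines mark 0.5 and -0.5; HOXA2 and HOXA3 lie near 2, HOXA13 below -3, and the HOXB genes at or below 0.22.

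In the HOXB cluster, 3 of 9 genes were down-regulated in GemMIA-R3 cells and none was up-regulated. HOXB8, which acts in spinal cord patterning and is known for its effect on myeloid progenitors in mice, had a log2FC of -1.71 ± 0.10 (FDR = 2.84e-64), HOXB5, a regulator of enteric neural crest development, had -1.45 ± 0.28 (FDR = 1.02e-06), and HOXB13, known for its role in the prostate, had -0.61 ± 0.26 (FDR = 0.0462). HOXB6 and HOXB9 had values just inside the limit of -0.5, at -0.49 ± 0.16 (FDR = 0.00593) and -0.48 ± 0.11 (FDR = 3.76e-05). HOXB7 had -0.007 (FDR = 0.983). HOXB2, HOXB3 and HOXB4 lay between -0.28 and 0.22 with FDR values over 0.1. None of the 4 HOXC genes with a value was called: HOXC6 had -0.85 ± 0.46 (FDR = 0.133), HOXC4 -0.82 ± 1.18, HOXC8 -0.07 ± 0.20 and HOXC5 0.14 ± 0.59.

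Over all 17 HOX genes described from this table, 4 were Down (23.5%, against 15.2% of all genes) and 2 were Up (11.8%, against 11.7%), with a median log2FC of -0.28 beside 0.001 over all genes. The medians by cluster were 1.08 for HOXA, -0.48 for HOXB and -0.45 for HOXC. The 4 HOXA values ran from -3.15 to 2.10 with a mean of 0.28, and the HOXC median was -0.068 with genes that had a value in all 5 tables. By position, the 4 anterior genes (paralog groups 1 to 3) had a median of 1.09 with 2 Up and 0 Down, the 9 central genes (groups 4 to 8) -0.49 with 0 Up and 2 Down, and the 4 posterior genes (groups 9 to 13) -0.55 with 0 Up and 2 Down. Both Up genes were HOXA genes, and with genes of a recovered standard error under 0.5 alone, HOXA3 was the 1 that stayed. The same limit took out HOXA13, the 1 Down gene of HOXA, and left 3 Down genes, all of HOXB. The anterior genes HOXB2 and HOXB3 had -0.17 ± 0.13 and 0.22 ± 0.22, and with paralog group 4 counted as anterior the median of that group was 0.026. Spearman's rho between paralog group and log2FC was -0.47 over the 17 genes, -0.80 over 4 HOXA genes, -0.53 over 9 HOXB genes and 0 over 4 HOXC genes. It is a description of few points that share libraries and, in part, reads.

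The RNAs beside the 3′ HOXA genes had values like theirs. HOTAIRM1, a long non-coding RNA known from myeloid cells that lies on the other strand just past the 3′ end of HOXA2, was up-regulated at 2.91 ± 0.58 (FDR = 3.88e-06), and HOXA-AS2, antisense to HOXA3, at 2.61 ± 0.60 (FDR = 6.86e-05). HOXA-AS2 lies wholly within the span of HOXA3, and their reads cannot be told apart here. SKAP2, an adaptor protein gene and the nearest of the listed neighbours past the 3′ end of the cluster, was also up-regulated, at 2.31 ± 0.14 (FDR = 3.38e-59). Further out on that side SNX10 was down-regulated at -0.72 ± 0.19 (FDR = 0.000601) and CBX3 had -0.20 ± 0.09. Past the 5′ end HIBADH, an enzyme gene of valine breakdown, was down-regulated at -1.05 ± 0.11 (FDR = 4.86e-20) and TAX1BP1 had -0.23 ± 0.09. At the HOXB and HOXC clusters, SKAP1, SNX11, CALCOCO2, HNRNPA1, SMUG1 and CALCOCO1 were not called and CBX5 was Up at 0.66 ± 0.10 (FDR = 1.08e-09).

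**Figure D2:**
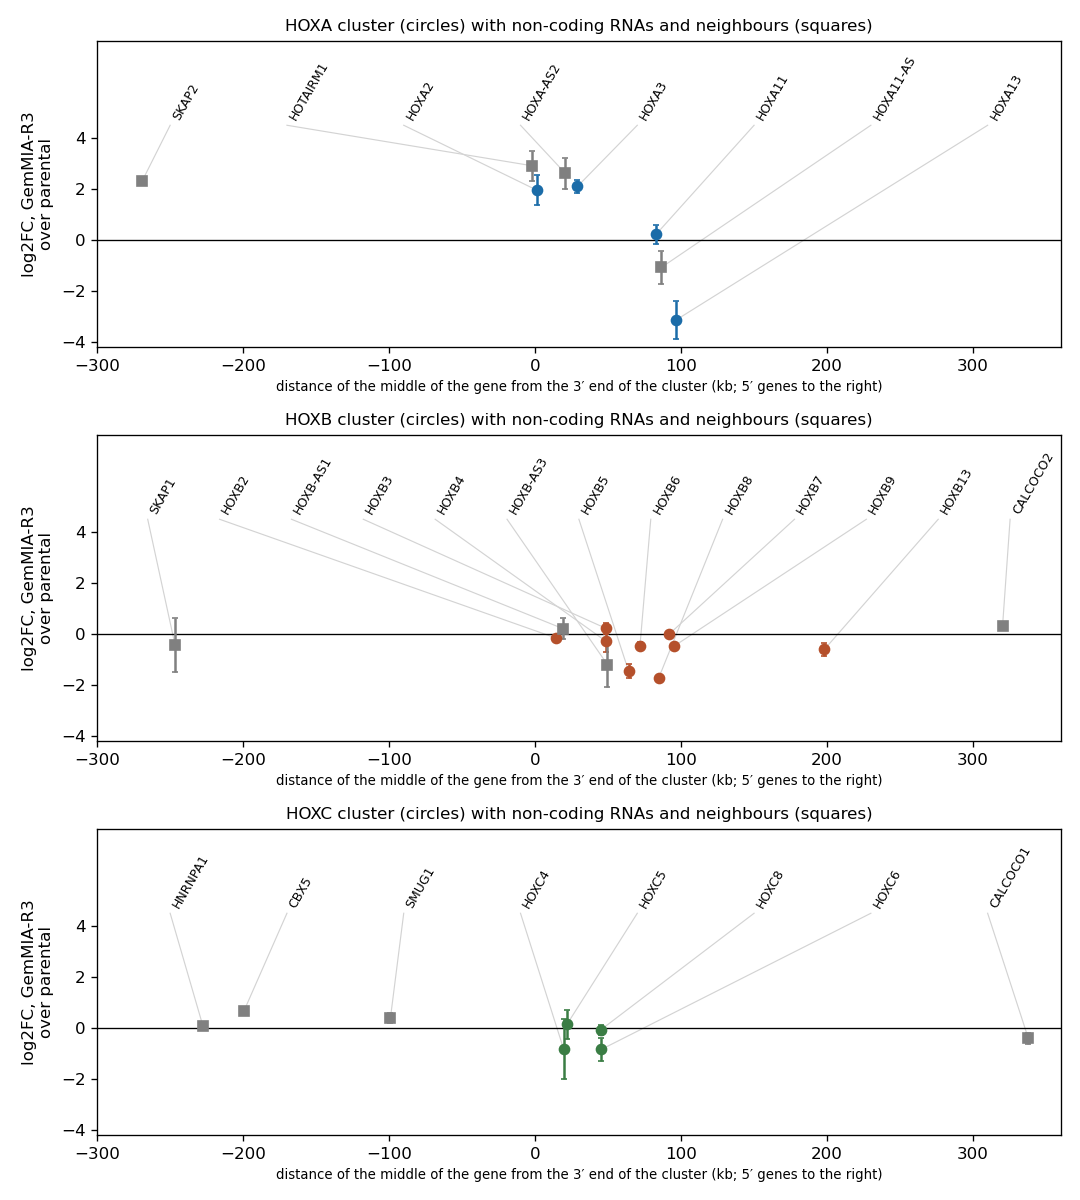
Deposited log2FC of untreated GemMIA-R3 over parental cells against position, as the distance in kb of the middle of each gene from the 3′ end of its cluster (for HOXA, the 3′ end of HOXA2). Circles are HOX genes, squares are non-coding RNAs and neighbouring genes within the range drawn, and bars are 1 recovered standard error; in the HOXA panel the values near the 3′ end and SKAP2 lie near 2 or above and HOXA13 lies at -3.15.

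CM03 down-regulated few HOX genes of GemMIA-R3 cells at 6 h. HOXB13 had a log2FC of -0.82 ± 0.30 (FDR = 0.0308), HOXC8, which acts in the patterning of the trunk and the brachial spinal cord, had -0.81 ± 0.24 (FDR = 0.0057), and HOXB8 had -0.54 ± 0.15 (FDR = 0.0033). These were 3 of 16 HOX genes (18.8%, against 7.26% of all genes Down), and 0 were Up (5.0% of all genes). The other 13 genes ran between -0.72 for HOXC5 and 0.46 for HOXC6, each with an FDR over 0.1, and of those above 0 none had an unadjusted recovered p under 0.05. HOXA3, HOXA13 and HOXB9 had values of 0.20, -0.004 and -0.06. HOXA2, HOXA11, HOXB2 and HOXB5 had -0.65 ± 0.57, -0.15 ± 0.36, -0.24 ± 0.16 and -0.26 ± 0.30. The median over the HOX genes was -0.15, beside 0.005 over all genes, and 14 of the 16 values were below 0. At a log2FC of -1 or less with an FDR under 0.05, 0 of these genes were Down.

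At 24 h, 8 of 18 HOX genes of GemMIA-R3 cells were down-regulated (44.4%, against 18.9% of all genes) and again 0 were Up (20.3% of all genes). The lowest value was that of HOXB13, at -2.94 ± 0.45 (FDR = 4.86e-10), or 0.130 times the control level, followed by HOXA2 at -2.22 ± 0.59 (FDR = 0.00057). HOXC8 had -1.46 ± 0.24 (FDR = 5.06e-09), HOXB9, a gene of thoracic patterning, -1.25 ± 0.13 (FDR = 5.54e-20) and HOXB8 -1.18 ± 0.16 (FDR = 7.61e-12). HOXB5 had -1.02 ± 0.32 (FDR = 0.00467), HOXA3 -0.95 ± 0.23 (FDR = 0.000122) and HOXB2, a hindbrain gene, -0.58 ± 0.16 (FDR = 0.00114).

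Down-regulated genes of GemMIA-R3 cells at 24 h came from all 3 measured clusters, 2 of 5 in HOXA, 5 of 9 in HOXB and 1 of 4 in HOXC, and from all positions, 3 of 4 anterior, 3 of 10 central and 2 of 4 posterior genes. The medians by position were -0.77, -0.73 and -0.88. All 9 HOXB values were below 0, the highest being -0.09 ± 0.20 for HOXB7, and HOXB6 lay just inside the limit at -0.44 ± 0.17 (FDR = 0.0254). Values above 0 belonged to HOXC5 (0.84 ± 0.47), HOXC6 (0.74 ± 0.44) and HOXA11 (0.51 ± 0.42), each with an FDR over 0.1 and an unadjusted p over 0.05. HOXA7, HOXA13 and HOXC4 had values of -1.20, -0.52 and -1.56 with recovered standard errors of 1.69, 1.4 and 1.61, so that changes of these sizes could not be told from 0 in these libraries. The median over all 18 genes was -0.77, beside 0.051 over all genes.

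The responses at 24 h and at 6 h were compared within GemMIA-R3 cells by a normal test on the recovered standard errors, with FDR values of the difference from the Benjamini-Hochberg adjustment over 12489 genes. HOXA13 and HOXB7, at -0.004 and -0.008 at 6 h, had no recovered error, and HOXC4 had no row at 6 h. Of the 14 HOX genes tested, 4 had a lower log2FC at 24 h (15.2% of all genes were lower) and 0 a higher one (9.47%). The differences were -2.12 for HOXB13 (95% interval -3.18 to -1.07, FDR = 0.000891), -1.19 for HOXB9 (-1.52 to -0.86, FDR = 1.45e-10), -1.15 for HOXA3 (-1.78 to -0.53, FDR = 0.00273) and -0.65 for HOXB8 (-1.08 to -0.21, FDR = 0.0196). HOXC8 and HOXA2 had intervals that reached just above 0, at -1.31 to 0.01 and -3.19 to 0.04. HOXC5 had a difference of 1.57 (0.01 to 3.12) with an FDR of 0.139, and it was the 1 gene above 0 with an unadjusted p under 0.05.

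In parental cells at 6 h, CM03 down-regulated 11 of 18 HOX genes (61.1%, against 16.3% of all genes) and 0 were Up (16.4% of all genes). Counted over all 23 rows of HOX genes, with the 5 listed at 0 as they are among all genes, the share Down was 47.8%. All 4 HOXA genes with a value were Down, HOXA3 with -1.47 ± 0.18 (FDR = 5.10e-16), HOXA2 and HOXA13 with -1.17 ± 0.36 and -1.17 ± 0.19, and HOXA11 with -0.80 ± 0.17 (FDR = 9.77e-06). Of the HOXB genes, HOXB13 had -1.46 ± 0.14 (FDR = 1.66e-25), HOXB8 -1.30 ± 0.08 (FDR = 1.52e-53), HOXB2 -1.07 ± 0.06 (FDR = 1.37e-60), HOXB9 -0.86 ± 0.07 (FDR = 3.37e-29) and HOXB7 -0.59 ± 0.10 (FDR = 6.91e-09).

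Of the HOXC genes of parental cells at 6 h, HOXC8 had the lowest value of all 18, -1.70 ± 0.11 (FDR = 5.59e-57), and HOXC5 -0.58 ± 0.25 (FDR = 0.0291). HOXB3, HOXB4 and HOXC6 lay just inside the limit, at -0.40, -0.48 and -0.47, with FDR values of 6.82e-08, 0.0013 and 0.000953. HOXB5 had -0.18 ± 0.08 and HOXB6 0.04 ± 0.09. HOXC4 had -0.71 ± 0.74. HOXC9 had the highest value, 1.69, with a recovered standard error of 1.10, and none of the values above 0 had an unadjusted p under 0.05. The median over the 18 genes was -0.76 (-0.58 over all 23 rows), beside 0 over all genes.

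At 24 h the HOX genes of parental cells were called in both directions. Down were 6 of 17 (35.3%, against 16.8% of all genes), namely HOXA2 at -2.52 ± 0.47 (FDR = 2.85e-07), HOXB13 at -2.42 ± 0.15 (FDR = 5.08e-54), HOXA13 at -1.20 ± 0.20 (FDR = 4.58e-09), HOXB9 at -0.997 ± 0.076 (FDR = 1.76e-38), HOXA3 at -0.78 ± 0.17 (FDR = 1.13e-05) and HOXB8 at -0.75 ± 0.08 (FDR = 3.12e-19). Up were 3 of 17 (17.6%, against 18.5%), namely HOXC5 and HOXC6, genes of the neck and upper trunk, and HOXA11, with HOXC5 at 1.72 ± 0.19 (FDR = 5.88e-19), HOXA11 at 1.4 ± 0.14 (FDR = 1.09e-21) and HOXC6 at 0.52 ± 0.13 (FDR = 8.86e-05). HOXA11 is the only Up gene here that overlaps no other HOX gene, though it overlaps its antisense RNA. Over all 23 rows, those listed at 0 included, 26.1% were Down and 3 of 23 Up.

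HOXA11 and HOXC5 were thus Down at 6 h and Up at 24 h in the parental tables. HOXB2, HOXB3, HOXB4 and HOXB7 had values of -1.07, -0.40, -0.48 and -0.59 at 6 h, and of 0.22, 0.49, 0.49 and 0.33 at 24 h, the last set with FDR values under 0.1 but changes within the limit. HOXC8 had -0.49 ± 0.10 at 24 h (FDR = 1.71e-06), also within it, and HOXB5 -0.45 ± 0.09. HOXB6 had -0.18 ± 0.10 and HOXC4 -1.04 ± 0.83. By position the medians at 24 h were -0.28 for anterior, -0.18 for central and -1.10 for posterior genes, and by cluster -0.99 for HOXA, -0.18 for HOXB and 0.01 for HOXC. With only genes that had a value in all 5 tables, the central median was 0.075 and the HOXC median 0.52. For parental cells, 11 genes had the same value other than 0 at both times, and whether the 2 comparisons share libraries is not stated in the sources used here, so that the times are given side by side and no difference between them was tested.

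**Figure D3:**
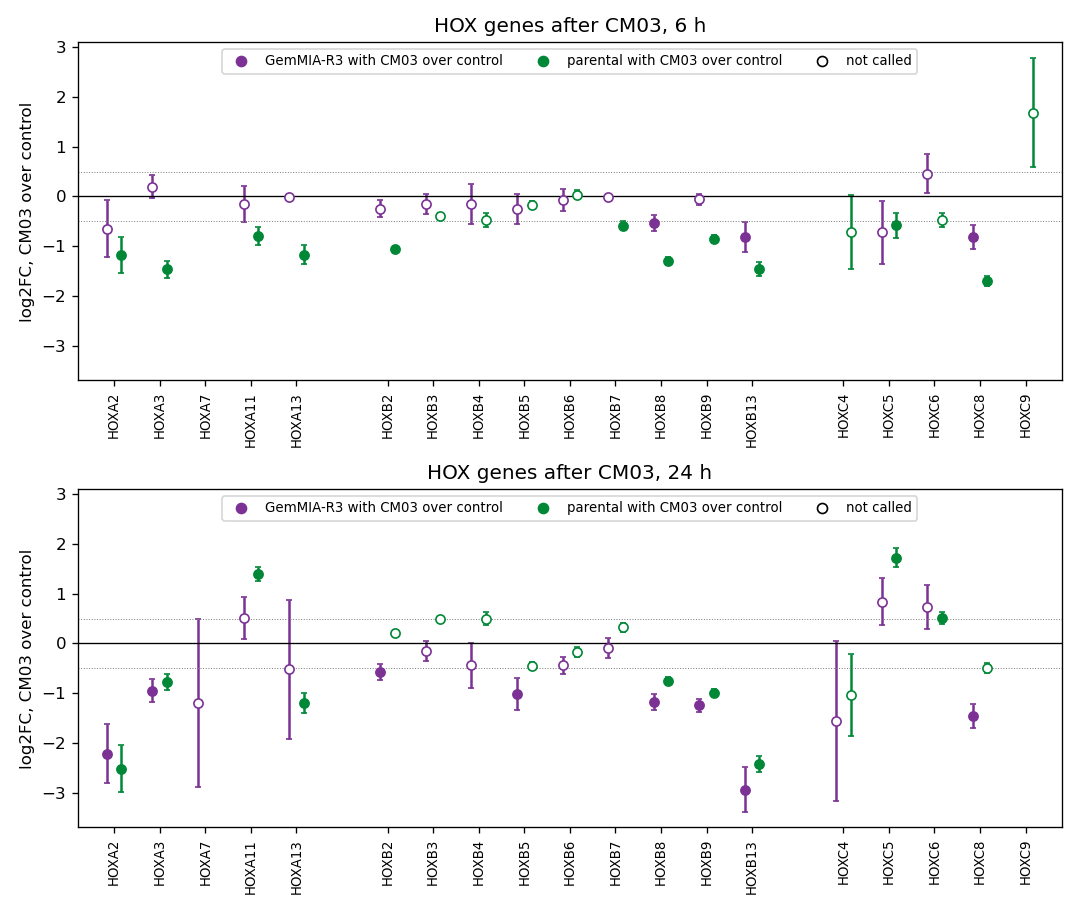
Deposited log2FC of CM03 over control at 6 h (upper panel) and 24 h (lower panel) for the HOX genes, in GemMIA-R3 cells (left point of each pair) and parental cells (right point). Bars are 1 recovered standard error, filled points are called genes and dotted lines mark 0.5 and -0.5; HOXB8 and HOXB13 are below -0.5 and filled in all 4 sets, and HOXC5 and HOXA11 lie above 0 at 24 h in both lines.

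HOXB8 and HOXB13 were Down in all 4 CM03 tables. HOXA2, HOXA3, HOXB9 and HOXC8 were Down in 3, and another 6 genes in 1 or 2. How many of all genes were Down in as many of these comparisons was not counted. In single comparisons, 7.26% of all genes were Down at 6 h and 18.9% at 24 h in GemMIA-R3 cells. In parental cells these shares were 16.3% and 16.8%. In GemMIA-R3 cells HOXB13 had -0.82 at 6 h and -2.94 at 24 h, against -1.46 and -2.42 in parental cells. HOXB8 had -0.54 and -1.18 in GemMIA-R3 cells, against -1.30 and -0.75 in parental cells. Of genes with a row in both tables, 3 were Down in both lines at 6 h, HOXB8, HOXB13 and HOXC8, which is 100% of the 3 in GemMIA-R3 and 27.3% of the 11 in parental cells. Over all 10941 genes of both tables the shares Down in both were 75.0% and 34.8%. At 24 h, 5 were Down in both, HOXA2, HOXA3, HOXB8, HOXB9 and HOXB13, which is 62.5% of the 8 in GemMIA-R3 and 83.3% of the 6 in parental cells. Over all 11328 genes of both tables these shares were 59.3% and 73.5%.

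The difference between the lines in the response to CM03 was tested in the same way as GemMIA-R3 minus parental, over 10459 genes at 6 h and 11004 at 24 h. At 6 h, 5 of 14 HOX genes had a higher, that is less negative, log2FC in GemMIA-R3 cells (9.13% of all genes were higher) and 0 a lower one (10.4%). The differences were 1.66 for HOXA3 (95% interval 1.11 to 2.22, FDR = 5.92e-07), 0.89 for HOXC8 (0.37 to 1.4, FDR = 0.00743), 0.82 for HOXB2 (0.48 to 1.17, FDR = 0.000107), 0.80 for HOXB9 (0.54 to 1.06, FDR = 1.53e-07) and 0.76 for HOXB8 (0.42 to 1.10, FDR = 0.000277). The median difference over the 14 genes was 0.64, and 3 were below 0, none with an unadjusted p under 0.05. HOXB13 had 0.63 (-0.01 to 1.28), which was not told from 0. HOXA13 and HOXB7 could not be tested at 6 h, since their values of -0.004 and -0.008 in GemMIA-R3 cells had no recovered error. In parental cells both were Down at 6 h, at -1.17 and -0.59.

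At 24 h the called differences had the other sign. Of 17 HOX genes, 3 had a lower log2FC in GemMIA-R3 cells (10.4% of all genes were lower) and 0 a higher one (7.55%). HOXC8 had a difference of -0.97 (-1.47 to -0.47, FDR = 0.0023), HOXB2 -0.80 (-1.14 to -0.46, FDR = 0.000166) and HOXB3 -0.65 (-1.05 to -0.24, FDR = 0.015). HOXB2 and HOXC8 were thus called at both times with opposite signs. The median difference was -0.51 and 14 of 17 were below 0, and none of those above 0 had an unadjusted p under 0.05. HOXA3, at 1.66 at 6 h, had -0.18 at 24 h (-0.74 to 0.38). Line and study cannot be told apart in any of these differences.

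**Figure D4:**
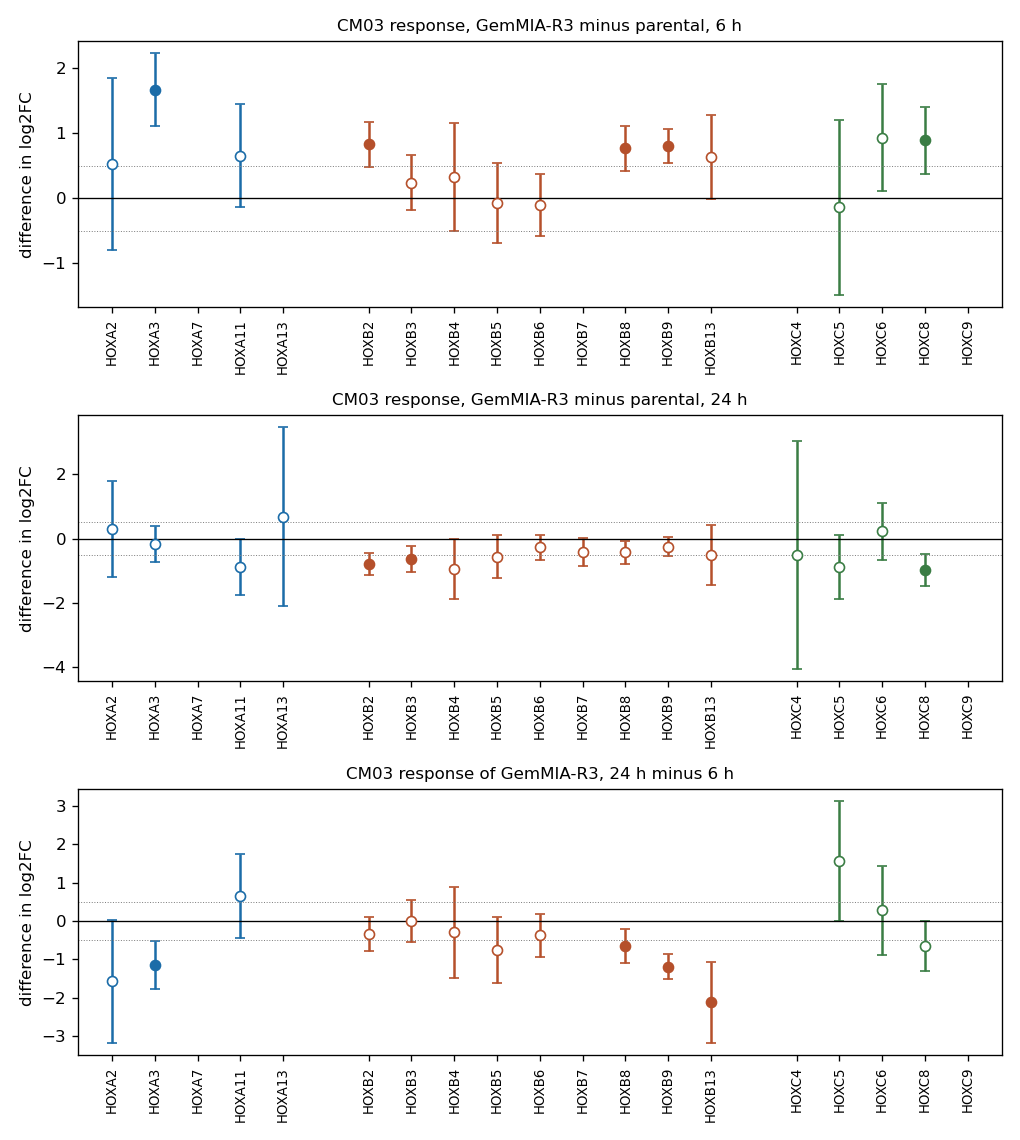
Differences in the log2FC of CM03 over control for each HOX gene tested: GemMIA-R3 minus parental at 6 h (top) and 24 h (middle), and 24 h minus 6 h in GemMIA-R3 (bottom). Points are differences with 95% intervals, filled where the FDR of the difference is under 0.05; the filled points are all above 0 in the top panel and all below 0 in the other 2.

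The comparison of untreated lines and that of CM03 in GemMIA-R3 cells at 24 h share the GemMIA-R3 control libraries, and their values are therefore only set side by side. HOXA2 and HOXA3 had -2.22 and -0.95 after CM03 at 24 h and 1.95 and 2.10 in GemMIA-R3 against parental cells. HOXB8, HOXB5 and HOXB13 had negative values in both, -1.18, -1.02 and -2.94 after CM03, and -1.71, -1.45 and -0.61 between the lines. HOXA13, at -3.15 between the lines, had -0.52 ± 1.4 after CM03 in GemMIA-R3 cells at 24 h, an interval too wide to tell a change.

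After CM03, 1 of the 4 measured non-coding RNAs of the clusters was Down and 1 Up at each time in the parental tables. At 6 h, 16.3% of all genes were Down and 16.4% Up there. Of the 5 measured in GemMIA-R3, 0 were Down and 1 was Up at 6 h, against 7.26% and 5.0% of all genes. In parental cells HOTAIRM1 was down-regulated at both times, at -1.32 ± 0.49 at 6 h (FDR = 0.0116) and -5.05 ± 0.90 at 24 h (FDR = 6.86e-08), and HOXB-AS3, antisense to HOXB3, was up-regulated at 0.98 ± 0.23 and 0.63 ± 0.25. In GemMIA-R3 cells HOTAIRM1 had 0.09 ± 0.38 and 0.09 ± 0.41, HOXB-AS1 was Up at 6 h at 0.59 ± 0.26 (FDR = 0.0871), and at 24 h 0 of 5 were called. Among the 25 listed neighbours of the clusters, 2 of 17 were Down and 7 Up in GemMIA-R3 cells at 24 h, against 4 of 17 Down and 4 Up in parental cells. Over all genes 18.9% were Down and 20.3% Up in GemMIA-R3 cells, against 16.8% and 18.5% in parental cells. SNX10, an endosomal sorting gene, had -3.23 ± 0.31 in GemMIA-R3 cells and -3.16 ± 0.13 in parental cells, and SKAP1, an adaptor of T cells that lies past the 3′ end of HOXB, had 2.94 ± 0.67 and 2.50 ± 0.25.

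The number of quadruplex motifs per gene was about the same for HOX genes as for all genes, without regard to gene length. Over the gene and the 2000 bases before it on hg38, the median was 8 motifs for the 24 HOX genes and 7 for 14174 genes of the tables with a position, and the deposited motif number (PQs) had a median of 5 for 23 HOX genes and 5 for 13503 genes. HOXB13 and HOXA2, with the lowest values after CM03 at 24 h, had PQs of 1 and 1. In the window around the start used below, they held 2 and 0 motifs, beside a median of 1 over all genes. HOXB8, HOXB9 and HOXC8 had PQs of 5 each, and 2, 5 and 4 motifs in that window. HOXC4, HOXB3, HOXC5, HOXC6 and HOXA3 had PQs of 37, 27, 22, 16 and 14, and 2, 0, 1, 0 and 1 motifs there. Over the gene and the 2000 bases before it on hg38, these last genes held 40, 53, 5, 55 and 32, so that the counts differed most in rank for HOXC5.

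Spearman's rho between the motif count on hg38 and log2FC was 0.52 and 0.23 over 16 and 18 HOX genes for the 6 h and 24 h responses of GemMIA-R3, and 0.32 and 0.19 over 18 and 17 in parental cells. Over all genes with a count it was -0.21, -0.15, -0.24 and -0.12. With motifs counted from 2000 bases before to 100 after the start alone, rho over the HOX genes was -0.19 and -0.47 in GemMIA-R3 cells and -0.39 and -0.44 in parental cells. Over all genes with a count in that window it was also below 0, at -0.13 and -0.12 in GemMIA-R3 cells and -0.13 and -0.065 in parental cells. The HOX genes with the most motifs are long and overlap other genes, and length itself had a rho of 0.74, 0.20, 0.20 and 0.01 with log2FC over the same genes. The sign over HOX genes differed with the region counted. Of the promoters shown above, HOXA2 without a motif was Down in both lines at 24 h, and HOXA3 with 4 in 1 of its windows was also Down in both. HOXA13 with 2 was Down in parental cells at both times and had no call after CM03 in GemMIA-R3 cells. HOXC5, with 1 in the window given for it and HOXC4, was Down at 6 h and Up at 24 h in parental cells. It had no call after CM03 in GemMIA-R3 cells, and HOXC4 had no call in any comparison.

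Genes that act with or on HOX genes were taken from lists. Over all genes, 15.2% were Down and 11.7% Up between the lines. After CM03 the shares were 7.26% Down and 5.0% Up at 6 h and 18.9% and 20.3% at 24 h in GemMIA-R3 cells, against 16.3% and 16.4% at 6 h and 16.8% and 18.5% at 24 h in parental cells. Of the DNA-binding cofactors, 4 of 8 were Up in GemMIA-R3 against parental cells and 0 Down, with a median of 1.32. MEIS2 was at 5.14 (FDR = 2.67e-162), MEIS3 at 3.14 and PBX3 at 0.64. After CM03, 1 of 6 was Down at 6 h and 2 of 7 at 24 h in GemMIA-R3 cells, against 4 of 7 and 2 of 7 in parental cells. PKNOX1 had -1.25 at 6 h in GemMIA-R3 cells and -1.48 in parental cells, and MEIS3 was Up at 24 h at 1.19 in GemMIA-R3 cells and 3.81 in parental cells.

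Of the Polycomb proteins, 3 of 25 were Down and 4 Up between the untreated lines, near the shares over all genes, with BMI1, a subunit of Polycomb repressive complex 1, at 3.18 (FDR = 0.000268). After CM03, 3 of 25 were Down at 6 h and 8 of 25 at 24 h in GemMIA-R3 cells, with 0 and 1 Up, against 6 and 5 of 27 Down in parental cells, with 0 and 2 Up. The chromodomain genes CBX7, CBX2 and CBX6 had -2.30, -1.91 and -1.84 at 24 h in GemMIA-R3 cells, and -1.4, -0.84 and -1.4 in parental cells. Of the Trithorax proteins and H3K27 demethylases, 1 of 17 was Down and 3 Up between the lines, the highest being MLLT3, a subunit of elongation complexes, at 8.94 (FDR = 3.97e-12). After CM03 at 24 h, 5 of 17 were Down and 2 Up in GemMIA-R3 cells, against 4 of 12 Down and 1 Up in parental cells, with MLLT1, a relative of MLLT3, at -2.43 in GemMIA-R3 cells and -1.76 in parental cells.

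Of the genes of retinoic acid and CDX input, 3 of 12 were Down and 4 Up between the lines. CYP26B1, which degrades retinoic acid, was at 3.23 (FDR = 1.36e-09), RARG, a retinoic acid receptor, at 1.51, and CDX2, an intestinal activator of HOX genes, at -1.25 (FDR = 0.0269). After CM03 at 24 h, 5 of 11 were Down and 1 Up in GemMIA-R3 cells, against 5 of 13 Down and 2 Up in parental cells. RXRA, the shared partner of the retinoic acid receptors, had -3.40 in GemMIA-R3 cells and -2.32 in parental cells, and CYP26B1 had -2.33 and -1.39. Other homeobox genes of the same class as HOX ran in both directions between the lines, with 7 of 21 Down and 3 Up, and after CM03 at 24 h 1 of 16 was Down and 2 Up in GemMIA-R3 cells, against 4 of 20 Down and 5 Up in parental cells.

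Markers of cell types were called in some comparisons, with few measured genes in each list. Over all genes, 15.2% were Down and 11.7% Up between the lines. After CM03 these shares were 7.26% and 5.0% at 6 h and 18.9% and 20.3% at 24 h in GemMIA-R3 cells. In parental cells they were 16.3% and 16.4% at 6 h and 16.8% and 18.5% at 24 h. Between the lines, 3 of 4 fibroblast markers were Up, with PDGFRB at 4.51 and COL3A1 at 4.44, 1 of 4 leukocyte and endothelial markers was Up and 1 Down, 0 of 3 acinar and islet markers were called, and of 6 ductal and epithelial markers 3 were Down and 1 Up, with KRT8 at -2.64, KRT18 at -2.42 and KRT19 at 0.59. After CM03 at 24 h, 2 of 4 fibroblast markers were Down in GemMIA-R3 cells, against 2 Down and 2 Up of 4 in parental cells. Of the ductal and epithelial markers, 3 of 6 were Down and 1 Up in GemMIA-R3 cells, with values from -2.23 to 0.68 (SOX9). In parental cells 2 of 7 were Down and 1 Up, with values from -1.54 to 3.21 (CDH1). Of the leukocyte and endothelial markers, 0 of 4 were called at 6 h and 1 of 5 was Up at 24 h in GemMIA-R3 cells, against 3 of 3 and 2 of 3 Up in parental cells, where CD74 had 6.46 and 2.46. Of the acinar and islet markers, 2 of 3 were Down at 6 h in GemMIA-R3 cells, with AMY2A at -3.58, and 0 of 3 were called at 24 h, while parental cells had a value for none. At 6 h no fibroblast marker was called in either line, and of the ductal and epithelial markers 0 of 6 were called in GemMIA-R3 cells, against 1 Up of 7 in parental cells. The libraries are of cultured MIA PaCa-2 cells or the line raised from them, and not of a mixed tissue. The part of these markers in the HOX results was not tested. In bulk RNA a change in some of the cultured cells and a change in all of them cannot be told apart.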

How the data were processed

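Per the paper's methods and the submitters' processing notes, reads were trimmed with Trimmomatic 0.36, aligned to hg38 with STAR 2.5b, marked for duplicates by molecular identifiers, counted with FeatureCounts and compared with SARTools, whose route is not given in the sources used here. Each deposited log2 fold change comes from these comparisons by the authors, and the FDR values are p-values that the authors adjusted over each table. These are the columns of the authors' own comparisons, used because the tables hold no counts or values per library; depth is therefore unknown. Columns of 0 and 1 mark the authors' subsets of called genes and were not used, and the deposited PQ numbers are the authors' motif counts per gene, a score from the earlier study. The untreated lines were compared at 24 h, per the file headers.

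HOX genes were taken by identifier, and 1 of them and some genes of the lists are not reported here. Each p was worked back from its FDR by undoing the Benjamini-Hochberg step, at the top of the interval that ties leave, and the standard error is the log2FC over the normal quantile of that p. Genes with a change under 0.01 in size were given no error. Differences were tested by a two-sided normal test over all genes, with Benjamini-Hochberg adjustment at 0.05, and the procedure was tested on simulated data. Motifs were counted on hg38 over GENCODE release 44 genes. The members, the 11 gene lists (HOX cofactors, Polycomb, Trithorax and H3K27 demethylases, retinoic acid and CDX, non-coding RNAs of the clusters, neighbours, other homeobox genes and 4 lists of cell type markers) and the tests were chosen with earlier results of these data known. HOX genes called in at least 1 table are given with all values, and of each list up to 4 called members with the largest change. Other thresholds, centring, gene sets and motif regions were tried. The work was done in Python 3.11.15 (scipy 1.17.1, numpy 2.4.6, pandas 2.3.3; figures in matplotlib 3.10.9).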

Additional observations from a re-analysis of the deposited data

Results flagged for a closer look

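Differences between the lines, or between the times within GemMIA-R3 cells, passed an FDR of the difference of 0.05 in 12 cases, for 7 HOX genes. These were 5 of 14 genes tested between the lines at 6 h, 3 of 17 at 24 h and 4 of 14 between the times. Over all genes, 9.13% were higher and 10.4% lower between the lines at 6 h, and 7.55% and 10.4% at 24 h. Between the times 9.47% were higher and 15.2% lower. In GemMIA-R3 minus parental cells at 6 h, the differences in the log2FC of CM03 were 1.66 for HOXA3, 0.82 for HOXB2, 0.76 for HOXB8, 0.80 for HOXB9 and 0.89 for HOXC8. At 24 h they were -0.80 for HOXB2, -0.65 for HOXB3 and -0.97 for HOXC8. In GemMIA-R3 cells, 24 h minus 6 h, they were -1.15 for HOXA3, -0.65 for HOXB8, -1.19 for HOXB9 and -2.12 for HOXB13. The part that the separate studies play in the differences between the lines was not tested, since every CM03-treated parental library comes from the earlier study.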

How the results depend on the processing

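Of 159 values of counts, medians and correlations under an alternative, 149 stayed within the limits set for them (1 SD over the genes for a median, a factor of 1.5 for a count, 1 approximate standard error for a correlation) and 10 moved. These limits are wide for groups of 3 to 10 genes. Of 75 alternatives of cluster and position medians within 1 SD, 18 moved by over 1.5 times and 3 changed sign. In GemMIA-R3 cells at 24 h the HOXC median was 0.74 with genes that had a value in all 5 tables, and in parental cells at 24 h the central median was 0.075 with those genes and 0.0165 as a mean. At a log2FC of at least 1 in size and an FDR under 0.05, 23 of 37 calls of single HOX genes were kept and 14 lost, leaving 0 Down in GemMIA-R3 cells at 6 h, and 7 Down at 6 h and 3 Down at 24 h in parental cells. With no limit on the change, 7 HOX genes were Up in parental cells at 24 h. With only genes of a recovered standard error under 0.5, 1 HOX gene was Up and 3 were Down between the lines, with HOXA2 and HOXA13 left out. With paralog group 4 counted as anterior, the anterior median between the lines was 0.026. The Spearman correlation of motifs and log2FC was -0.19, -0.47, -0.39 and -0.44 for promoters alone (GemMIA-R3 6 h and 24 h, parental 6 h and 24 h), and 0.195 for the deposited numbers in GemMIA-R3 cells at 6 h. No single call reversed, and the calls of differences kept their side under the lower end of the p interval, with centred tables and, chosen after seeing the data, with the parental FDR read over rows not listed at 0. No paired analysis was possible because the tables hold no values per library. For the same reason another normalization, another count test, a filter on low counts and leaving out each replicate were not run. The causes of these shifts were not tested, beyond the stricter limits and smaller gene sets themselves.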

Other observations

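Homeobox genes of the HOX class outside the clusters held larger differences between the untreated lines than any HOX gene. In GemMIA-R3 against parental cells HLX, a gene of gut and liver mesenchyme, had a log2FC of 7.51 (FDR = 3.88e-22), while MSX2, EN1 and NKX6-2, known from limb, brain and glial development, had -7.28, -7.19 and -6.73. After CM03, GBX2, a gene of the midbrain-hindbrain boundary, was Up in all 4 comparisons, at 0.78 (6 h) and 1.20 (24 h) in GemMIA-R3 cells, and at 1.36 and 1.21 in parental cells. MNX1, a gene of motor neurons and of the pancreas, was Down at 24 h at -1.49 in GemMIA-R3 cells and -0.75 in parental cells.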
